A study of Homo sapiens with 18 samples.

Results

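The SLC25 family holds the carriers that move metabolites across the inner mitochondrial membrane. Its members were taken as every protein-coding gene whose symbol is SLC25A followed by a number, which gave 48 genes among the 60675 human gene rows of the count table. The filter on low counts kept 45 of them. SLC25A31, the testis ADP/ATP carrier, SLC25A2, an ornithine carrier, and SLC25A47 were left out, with at most 2, 7 and 10 counts in any library.

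SLC25 proteins are encoded in the nucleus, translated on cytosolic ribosomes and brought through the TOM complex, the small TIM chaperones and the TIM22 complex into the inner membrane. They exchange ADP for ATP, take up phosphate for ATP synthesis, and carry di- and tricarboxylates, amino acids, acylcarnitines, cofactors and iron. A few sit elsewhere: SLC25A17 lies in the peroxisomal membrane and SLC25A46 in the outer mitochondrial membrane.

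The libraries came from HEK293T, a line of human embryonic kidney cells, in which YTHDF1, YTHDF2 or YTHDF3 was produced as a fusion to the RNA-editing enzyme ADAR. YTHDF proteins bind m6A, a methylated adenosine in mRNA, and the fused enzyme edits adenosines to inosine, which is read as G, on the RNAs it meets. All 18 libraries are from cells given 1 µg/mL doxycycline for 24 h to induce the fusion and 100 µg/mL cycloheximide for 10 min to hold ribosomes in place. Each of the lines YTHDF1-ADAR, YTHDF2-ADAR and YTHDF3-ADAR gave 3 total RNA libraries and 3 libraries of RNA from pooled gradient fractions with polysomes, and no library without a fusion was among them. The labels do not say whether replicates are separate cultures or whether a line is 1 clone, so p-values measure the spread between these libraries, which may be technical.

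Libraries held 42699303 to 67549159 counts. The gene of each fused YTHDF protein had its highest mean level in total RNA of its own line, although the counts do not separate fusion from endogenous gene. All 8 markers expected in HEK293T cells were detected, from VIM at 239.6 to 388 CPM (the count relative to the library's size, scaled with TMM factors) to NES at 0.686 to 8.73 CPM. Of the markers of other cell types, PTPRC, PECAM1, ALB and CD3E stayed at or below 0.192 CPM and HBB at or below 0.528 CPM, while COL1A1 reached 34.5 CPM. Replicate 1 of YTHDF3-ADAR stood apart from replicates 2 and 3 in both fractions. In total RNA it was the library farthest from the other 2 for 36 of the 45 tested SLC25A genes, against 4 and 5 genes for replicates 2 and 3, and on polysomes for 27 against 8 and 10. In the other 4 groups the library that was most often farthest accounted for 24 to 27 genes, with 27 for YTHDF2-ADAR polysome replicate 1. Over all tested genes YTHDF1-ADAR total RNA replicate 1 also stood apart. Its chi-square over the degrees of freedom was 169 and 219 from replicates 2 and 3, against 28.6 between those. For YTHDF3-ADAR total RNA replicate 1 it was 145 and 139, against 17.1. Only the tests on YTHDF3-ADAR cells were repeated without replicate 1 of that line in both fractions, a choice made after seeing the data. Of the 61 calls of members that involve this line in the polysome comparison or between lines, 59 were made without it as well, all but those of SLC25A16 and SLC25A20 on polysomes. Group levels are given with all 3 replicates. Values for the 3 lines are given in the order of their YTHDF number unless the line is named.

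SLC25A5 and SLC25A6, which encode the ADP/ATP carriers ANT2 and ANT3, were by far the most abundant members. Levels of different genes are compared as RPKM, the CPM per kilobase of exonic length in the deposited table. SLC25A5 averaged 336 RPKM over the 18 libraries and SLC25A6 223 RPKM. Only these 2 exceeded 100 RPKM, 14 members lay between 10 and 100, 23 between 1 and 10 and 6 below 1, with a median of 6.36 RPKM over the 45. In total RNA of YTHDF1-ADAR cells SLC25A5 stood at 284 ± 8.53 RPKM (mean ± SD, n = 3) and SLC25A6 at 211 ± 11.9 RPKM. In total RNA of YTHDF3-ADAR cells the values were 346 ± 51.6 and 303 ± 79.9 RPKM in that order, from 287, 380.3 and 371 against 211, 359 and 338 in the 3 replicates. SLC25A5 was above SLC25A6 in 18 of the 18 libraries. On YTHDF3-ADAR polysomes SLC25A5 stood at 348 ± 71.8 RPKM and SLC25A6 at 169 ± 49.5 RPKM.

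**Figure D1:**
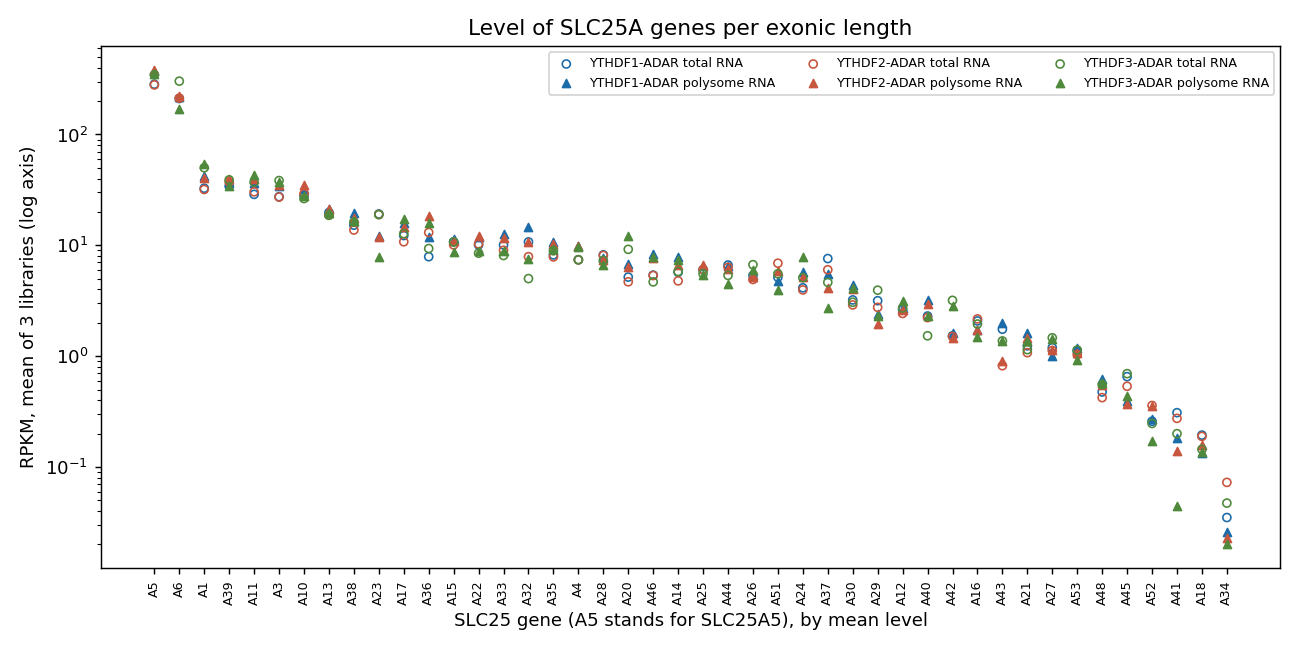
Mean RPKM of 44 tested SLC25A genes (log axis) in order of their mean over all libraries, with open circles for total RNA, filled triangles for polysome RNA and 1 colour per line; each point is the mean of 3 libraries. SLC25A5 and SLC25A6 stand above 100 RPKM in every group, and the 6 lowest members lie below 1 RPKM.

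Next came SLC25A1, the citrate carrier, with group means of 31.9 to 54.4 RPKM, and SLC25A39, a glutathione carrier, with 34.2 to 39.4. SLC25A11, the oxoglutarate carrier, ranged from 28.8 to 43.1 RPKM, SLC25A3, the phosphate carrier, from 27.2 to 38.4 and SLC25A10, the dicarboxylate carrier, from 26.4 to 34.7. SLC25A1 was above SLC25A3 and SLC25A10 in all 18 libraries, and above SLC25A11 in 14 and SLC25A39 in 11 of them. SLC25A39 was above SLC25A11 in 11, SLC25A11 above SLC25A3 in 14 and SLC25A3 above SLC25A10 in 12, so neighbours in this order changed places between libraries. SLC25A10 shares 46.6% of its exonic bases with another annotated gene on the same strand, ENSG00000262660, and its count is uncertain for that reason. Among ADP/ATP carriers, the muscle form SLC25A4 averaged 8.58 RPKM and the testis form SLC25A31 0.00578 RPKM. In raw share the 3 most counted members, SLC25A5, SLC25A6 and SLC25A3, took 39.5% to 51.9% of all SLC25A counts of a library. Together the 48 members took 0.314% ± 0.00832 (SD, n = 3) of protein-coding counts in total RNA and 0.347% ± 0.0127 on polysomes of YTHDF1-ADAR cells. YTHDF2-ADAR cells gave 0.311% ± 0.00723 and 0.348% ± 0.00841, and YTHDF3-ADAR cells gave 0.368% ± 0.0291 and 0.349% ± 0.0368. Total RNA of YTHDF3-ADAR cells held the largest mean SLC25A share of coding counts of the 6 groups. Its replicates 1, 2 and 3 gave 0.335%, 0.390% and 0.378%, and replicate 1 lay below all 3 polysome means. The 3 polysome shares differed by less than their SD.

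The polysome comparison asked which carrier mRNAs were better or less well represented on polysomes than in total RNA of the same line. With all libraries in the fit, more SLC25A mRNAs were called higher than lower on polysomes with YTHDF1-ADAR and with YTHDF2-ADAR, and as many were called higher as lower with YTHDF3-ADAR. The first of these balances turned, and the second became even, when certain single libraries were left out. In YTHDF1-ADAR cells 10 of 45 members were called higher and 3 lower (quasi-likelihood test of edgeR, with p adjusted over all 26804 genes tested by Benjamini and Hochberg and a threshold of 0.05). In the same comparison 9.26% of all genes were called higher and 11.9% lower, and of the 15675 protein-coding genes 14% and 7.47%. In YTHDF2-ADAR cells 9 members were called higher and 3 lower, against 6.71% and 9.04% of all genes and 10.4% and 4.78% of protein-coding genes. In YTHDF3-ADAR cells 8 members were called higher and 8 lower, against 8.01% and 12.1% of all genes and 12.4% and 7.99% of protein-coding genes. Median log2 fold changes of the members were 0.19, 0.19 and 0.01 in the 3 lines, beside 0.03, 0.03 and -0.05 for all genes and 0.13, 0.13 and 0.05 for protein-coding genes. Without YTHDF3-ADAR replicate 1 of both fractions, 9 members were called higher and 9 lower in that line, against 16.6% and 13.8% of all genes. With 1 library left out, members called higher numbered 1 to 7 in YTHDF1-ADAR and 2 to 6 in YTHDF2-ADAR cells. Without YTHDF1-ADAR total RNA replicate 2, 1 member was called higher and 3 lower, against 5.16% and 9.06% of all genes. In YTHDF2-ADAR cells 2 were higher and 2 lower without total RNA replicate 2 or 3 or polysome replicate 1 or 3, against 2.50% to 3.23% and 5.61% to 6.36% of all genes.

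Both counts depend on the scaling of polysome against total libraries. Protein-coding genes took 63.0% to 72.8% of counts in total RNA (group means) and 89.6% to 90.1% on polysomes. With library totals alone as the scale, 33, 29 and 16 members were called higher and 0, 0 and 5 lower. That scale moved the median of all genes to 0.46, 0.40 and 0.25, and 40.6%, 33.9% and 25.3% of all genes were then called higher. All directions below are relative to the TMM scale. Polysome and total libraries of the same number were taken as pairs within a line, although some were closer to a library of another number. With the replicate number as a block 20, 18 and 10 members were called higher and 4, 5 and 11 lower. Of all genes 18.7%, 15.5% and 13.6% were then higher and 18%, 15% and 20.1% lower. The block kept each SLC25A call of this comparison and added SLC25A4, the muscle ADP/ATP carrier, as higher in all 3 lines. With both YTHDF1-ADAR and YTHDF2-ADAR it also added SLC25A1, SLC25A33, SLC25A35, SLC25A38 and SLC25A40, all higher.

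**Figure D2:**
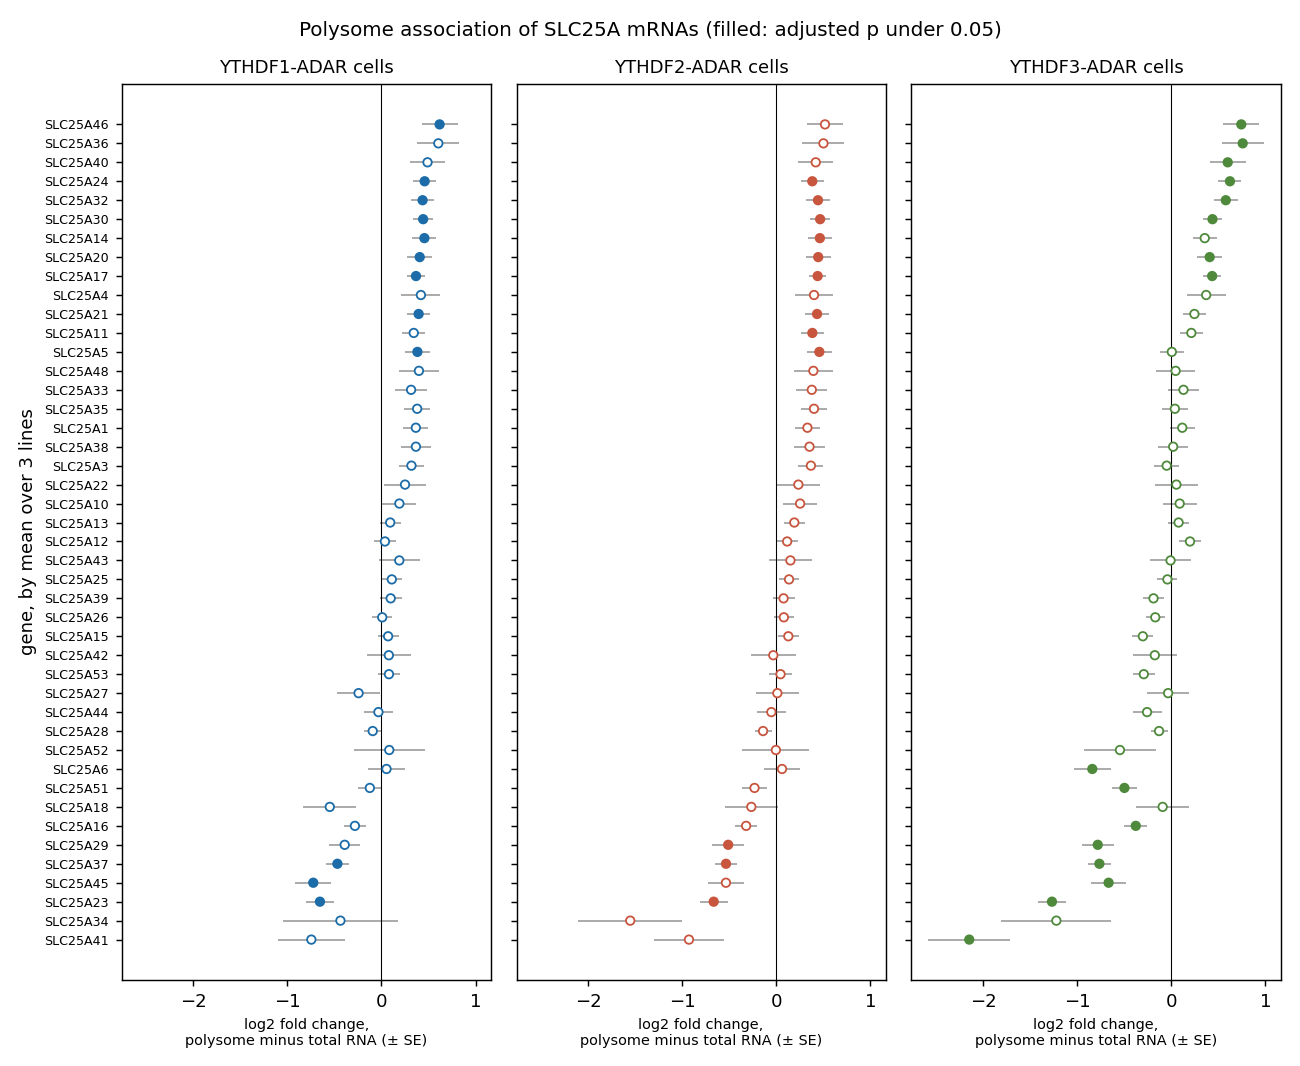
Log2 fold change of polysome minus total RNA (± SE) for 44 tested SLC25A genes in each line, ordered by the mean over lines; filled points are called at an edgeR adjusted p under 0.05. SLC25A46 and SLC25A36 stand at the top and SLC25A23, SLC25A34 and SLC25A41 at the bottom, and SLC25A6 lies near 0 in 2 lines and at -0.84 in YTHDF3-ADAR cells.

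SLC25A17, SLC25A20, SLC25A24, SLC25A30 and SLC25A32 were called higher on polysomes in all 3 lines, and SLC25A23 and SLC25A37 lower in all 3. Of all genes 3.7% were called higher in all 3 and 6.56% lower, and of protein-coding genes 5.91% and 3.65%, beside 5 and 2 of the 45 members. In total 13 members were called higher in at least 1 line and 8 lower in at least 1, against 12.6% and 16.3% of all genes and 18.8% and 10.5% of protein-coding genes. The 3 lines are tested on separate libraries but share 1 estimate of the spread. With only the YTHDF3-ADAR libraries in the fit, 0 of 26804 genes were called higher there and 0.776% lower. None of the 5 members higher in all 3 lines kept its YTHDF3-ADAR call in that fit, and 1 member was called lower there. Fits with 1 library or with YTHDF3-ADAR replicate 1 left out still share the spread over all 3 lines.

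SLC25A17, the peroxisomal carrier of coenzyme A, FAD and related cofactors (chr22:40769630-40819399, minus strand, GRCh38), rose on polysomes in each line. In YTHDF1-ADAR cells SLC25A17 stood at 53.4, 43.5 and 49.7 CPM in total RNA and 61.3, 60.1 and 67.5 CPM on polysomes. In YTHDF2-ADAR cells SLC25A17 stood at 43.8, 43.7 and 41.3 CPM in total RNA and 56.4, 56.8 and 61.4 CPM on polysomes. In YTHDF3-ADAR cells SLC25A17 stood at 50.6, 53.1 and 48.7 CPM in total RNA and 73.7, 71.2 and 61.3 CPM on polysomes. The 3 polysome libraries lay above the 3 total RNA libraries in each line. Log2 fold changes were 0.37 ± 0.09, 0.44 ± 0.09 and 0.44 ± 0.09 (± SE), with edgeR adjusted p of 0.0118, 0.00522 and 0.0045. In YTHDF1-ADAR cells the call was lost without total RNA replicate 2 or polysome replicate 3 (log2 fold change of 0.29 to 0.44 over the 6 libraries left out, adjusted p up to 0.064).

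SLC25A30, a carrier related to the uncoupling proteins (chr13:45393316-45418455, minus strand), rose by nearly the same amount in the 3 lines. Levels of SLC25A30 in total RNA of YTHDF1-ADAR cells were 22.6, 20.5 and 22.4 CPM, and on polysomes 29.3, 29.6 and 30.2 CPM. YTHDF2-ADAR libraries gave 19.7, 20.6 and 18.8 CPM in total RNA and 25.9, 27.4 and 28.3 CPM on polysomes. YTHDF3-ADAR libraries gave 19.8, 20.5 and 22.1 CPM in total and 23.7, 32.6 and 28.4 CPM in polysome RNA. No polysome library overlapped a total RNA library of its line. The log2 changes were 0.44 ± 0.10, 0.47 ± 0.10 and 0.44 ± 0.10, with edgeR adjusted p of 0.00667, 0.00621 and 0.00728, and no single library left out ended a call.

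SLC25A24, an ATP-Mg/phosphate carrier regulated by calcium (chr1:108134043-108200849, minus strand), was higher on polysomes in 3 of 3 libraries of each line. In YTHDF1-ADAR cells SLC25A24 stood at 25.1, 26.6 and 31.7 CPM in total RNA and 38.2, 34.9 and 41.6 CPM on polysomes. In YTHDF2-ADAR cells SLC25A24 stood at 26.7, 27.2 and 26.0 CPM in total RNA and 31.5, 34.4 and 38.2 CPM on polysomes. In YTHDF3-ADAR cells SLC25A24 stood at 33.1, 32.9 and 37.0 CPM in total RNA and 44.5, 62.1 and 52.2 CPM on polysomes. The step from total to polysome RNA was largest by value in YTHDF3-ADAR cells, and the fractions did not overlap in any line. These steps came to 0.46 ± 0.12, 0.38 ± 0.12 and 0.62 ± 0.12, with edgeR adjusted p of 0.0148, 0.044 and 0.00241. Leaving out any 1 of the 6 libraries ended the call in YTHDF2-ADAR cells (log2 0.31 to 0.45, adjusted p up to 0.188). In YTHDF1-ADAR cells leaving out total RNA replicate 1 or 2 or polysome replicate 3 did so (adjusted p up to 0.0726).

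SLC25A20, the carnitine/acylcarnitine carrier of fatty acid oxidation (chr3:48856926-48898904, minus strand), passed the threshold narrowly. Levels of SLC25A20 in total RNA of YTHDF1-ADAR cells were 10.0, 10.2 and 9.17 CPM, and on polysomes 13.6, 13.8 and 11.6 CPM. YTHDF2-ADAR libraries gave 10.7, 7.85 and 8.09 CPM in total RNA and 12.7, 11.9 and 11.7 CPM on polysomes. Those of YTHDF3-ADAR gave 16.2, 18.1 and 18.1 CPM in total and 26.4, 23.5 and 19.7 CPM in polysome RNA. The fractions did not overlap in any line, and the levels in YTHDF3-ADAR cells stood above those of the other lines in both fractions. Log2 fold changes were 0.41 ± 0.13, 0.45 ± 0.13 and 0.41 ± 0.13, with edgeR adjusted p of 0.0389, 0.0316 and 0.0366. Without YTHDF3-ADAR replicate 1 of both fractions the change there was 0.32 (adjusted p = 0.0772). Leaving out 1 library ended the call in 5 of 6 cases in YTHDF1-ADAR cells (all but polysome replicate 3) and in 5 of 6 in YTHDF2-ADAR cells (all but total RNA replicate 1). In YTHDF3-ADAR cells total RNA replicates 2 and 3 and polysome replicates 1 and 2 did so, and the highest adjusted p in the 3 lines were 0.127, 0.145 and 0.104.

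SLC25A32, linked to folate and FAD transport (chr8:103398635-103415189, minus strand), was higher on polysomes in each line. In YTHDF1-ADAR cells SLC25A32 stood at 39.2, 37.3 and 41.1 CPM in total RNA and 51.5, 52.5 and 55.3 CPM on polysomes. In YTHDF2-ADAR cells SLC25A32 stood at 28.0, 30.4 and 28.1 CPM in total RNA and 38.1, 37.8 and 41.8 CPM on polysomes. In YTHDF3-ADAR cells SLC25A32 stood at 21.6, 17.0 and 16.2 CPM in total RNA and 33.0, 26.7 and 22.4 CPM on polysomes. No fraction overlapped the other, and YTHDF3-ADAR libraries held the lowest levels. The changes were 0.44 ± 0.13, 0.44 ± 0.13 and 0.58 ± 0.13, with edgeR adjusted p of 0.022, 0.0253 and 0.00491. Its count is uncertain, since 69.7% of its exonic bases also belong to ENSG00000285982 on the same strand. Left out singly, total RNA replicates 1 and 2 and polysome replicates 2 and 3 ended the call in YTHDF1-ADAR cells (adjusted p up to 0.0785), and every library but polysome replicate 2 did in YTHDF2-ADAR cells (up to 0.105).

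SLC25A23, another calcium-regulated ATP-Mg/phosphate carrier and a close relative of SLC25A24 (chr19:6436079-6465203, minus strand), moved the other way and fell on polysomes in each line. Levels of SLC25A23 in total RNA of YTHDF1-ADAR cells were 97.9, 94.3 and 88.3 CPM, and on polysomes 61.2, 65.7 and 51.4 CPM. YTHDF2-ADAR libraries gave 101, 84.0 and 92.9 CPM in total RNA and 66.4, 55.8 and 52.9 CPM on polysomes. YTHDF3-ADAR libraries gave 78.7, 101 and 97.2 CPM in total and 39.3, 29.8 and 46.1 CPM in polysome RNA. All polysome libraries lay below all total RNA libraries of their line. On the log2 scale the changes were -0.65 ± 0.15, -0.67 ± 0.15 and -1.27 ± 0.15, with edgeR adjusted p of 0.00579, 0.00651 and 4.46e-05, and no left-out library ended a call. Without YTHDF3-ADAR replicate 1 of both fractions the change in that line was -1.31 (adjusted p = 0.000119).

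SLC25A41, a relative of SLC25A23 (chr19:6426037-6433779, minus strand), lies next to it, 2299 bases beyond its 3′ end on the same strand. It is known to lack the calcium-binding part of SLC25A23 and had few counts here. Polysome RNA of YTHDF3-ADAR cells held 4, 4 and 5 counts and total RNA 27, 8 and 17. At such counts a few reads move the level. In YTHDF1-ADAR cells SLC25A41 stood at 0.601, 0.418 and 0.509 CPM in total RNA and 0.218, 0.324 and 0.367 CPM on polysomes. In YTHDF2-ADAR cells SLC25A41 stood at 0.509, 0.307 and 0.542 CPM in total RNA and 0.245, 0.290 and 0.156 CPM on polysomes. In YTHDF3-ADAR cells SLC25A41 stood at 0.492, 0.171 and 0.325 CPM in total RNA and 0.0812, 0.0611 and 0.0793 CPM on polysomes. The fractions did not overlap in any line, and total RNA replicates of YTHDF3-ADAR cells lay far apart. As log2 changes these were -0.75 ± 0.36, -0.93 ± 0.37 and -2.15 ± 0.44, with edgeR adjusted p of 0.154, 0.103 and 0.00307, so only the YTHDF3-ADAR change was called. Without replicate 1 of both fractions the YTHDF3-ADAR change of SLC25A41 was -1.74 (adjusted p = 0.0205). Those of SLC25A17, SLC25A24, SLC25A30, SLC25A32 and SLC25A37 were then 0.45, 0.78, 0.59, 0.63 and -0.68, all called.

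SLC25A37, mitoferrin-1, which takes iron into mitochondria (chr8:23528956-23575463, plus strand), also fell on polysomes in each line. Levels of SLC25A37 in total RNA of YTHDF1-ADAR cells were 62.2, 57.4 and 62.6 CPM, and on polysomes 40.9, 43.5 and 47.3 CPM. YTHDF2-ADAR libraries gave 49.0, 49.7 and 45.7 CPM in total RNA and 35.2, 32.3 and 32.1 CPM on polysomes. Those of YTHDF3-ADAR gave 36.1, 39.1 and 36.0 CPM in total and 20.9, 17.6 and 27.0 CPM in polysome RNA. The fractions were separate in each line. This came to log2 changes of -0.47 ± 0.12, -0.53 ± 0.12 and -0.76 ± 0.12, with edgeR adjusted p of 0.0118, 0.00697 and 0.000528. Without polysome replicate 1 the YTHDF1-ADAR call was lost (adjusted p = 0.0544). Its relative SLC25A28, mitoferrin-2, had log2 changes of -0.09 ± 0.09, -0.14 ± 0.09 and -0.13 ± 0.09 and was called in no line (edgeR adjusted p of 0.511, 0.331 and 0.351).

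**Figure D3:**
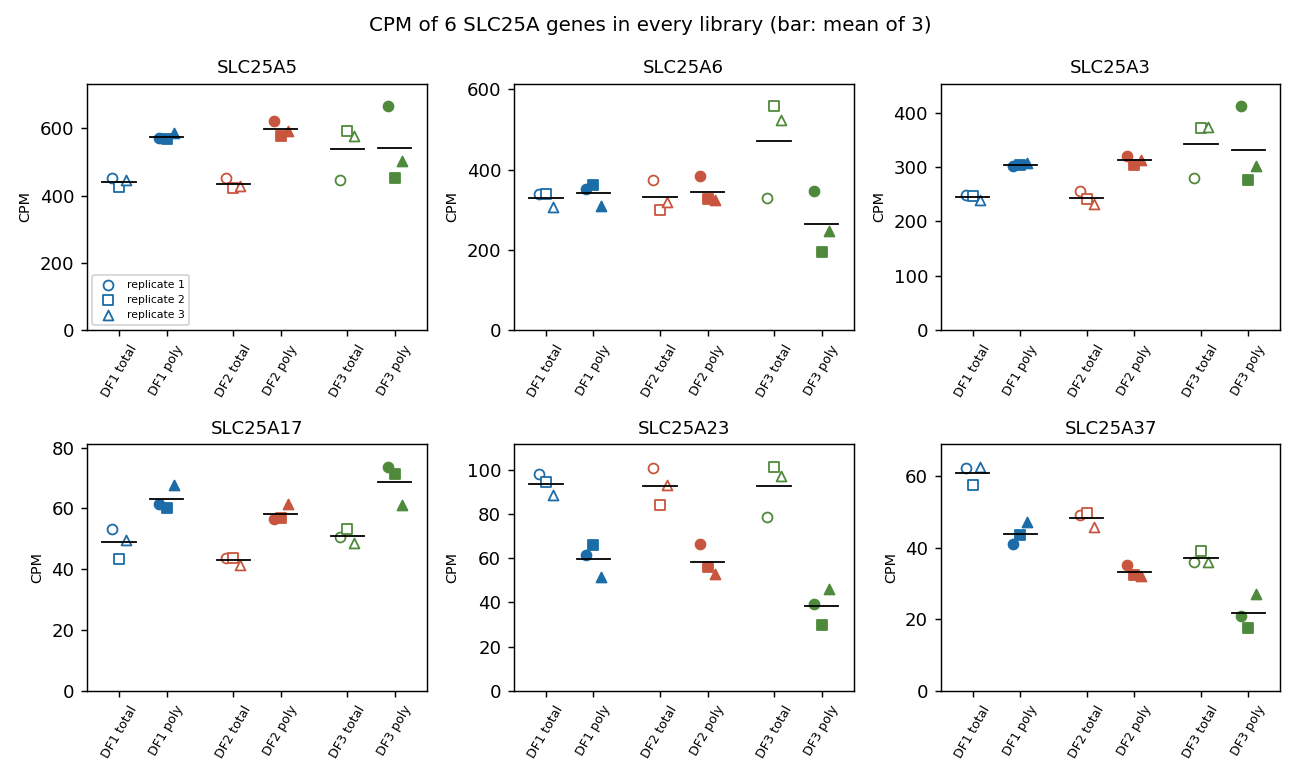
CPM of 6 SLC25A genes in every library, with open symbols for total RNA, filled symbols for polysome RNA, a symbol shape per replicate number and a bar at the mean of 3. SLC25A17 lies higher and SLC25A23 and SLC25A37 lower on polysomes in each line, while in SLC25A5, SLC25A6 and SLC25A3 replicate 1 of YTHDF3-ADAR departs from replicates 2 and 3.

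For the most abundant members the YTHDF3-ADAR values depended on replicate 1. Their RNA starts are shown first because SLC25A5, SLC25A6 and SLC25A3 all begin with C and a short run of pyrimidines. Whether the start bears on polysome levels was not tested. The sequences are from RefSeq (GRCh38.p14), with 20 bases before the annotated start in lower case and the first 10 transcribed bases in capitals, and SLC25A23 and SLC25A17, without such a run, are given for comparison.
SLC25A5, chrX:119468424-119468453, plus strand: cggccatttgcttcgctccgCCCCGCAGCG
SLC25A6, chrX:1392104-1392133, minus strand: ctgcgcggtggctgctccgtCCTTTCGGTC
SLC25A3, chr12:98593666-98593695, plus strand: ggacccggaggacgtccggcCTCTGTGAGC
SLC25A23, chr19:6459783-6459812, minus strand: gcgggcggcgacggctagccGTCACCACCT
SLC25A17, chr22:40819337-40819366, minus strand: ggtttgagagggcggggattGCGACTCTCA

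The run of C or T that begins at the start site is 4 bases in SLC25A5, 6 in SLC25A6 and 4 in SLC25A3. A C followed without a break by C or T to a run of at least 4 was found on the transcribed strand at 5 of 50 annotated starts of 40 members, or 10.0%, against 5.45% of the 34961 starts in the RefSeq table. The other member starts with such a run belong to SLC25A21 (9 bases) and to the first of 4 listed starts of SLC25A22 (6 bases). A match describes these letters only, and 8 members had no start in the table.

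SLC25A5 (chrX:119468422-119471396, plus strand) rose on polysomes with YTHDF1-ADAR and with YTHDF2-ADAR. In YTHDF1-ADAR cells SLC25A5 stood at 452, 427 and 447 CPM in total RNA and 573, 569 and 586 CPM on polysomes. In YTHDF2-ADAR cells SLC25A5 stood at 454, 422 and 430.1 CPM in total RNA and 623, 578 and 592 CPM on polysomes. In YTHDF3-ADAR cells SLC25A5 stood at 446, 591 and 577 CPM in total RNA and 667, 454 and 502 CPM on polysomes. In replicate 1 of YTHDF3-ADAR the polysome level exceeded that of total RNA, and in replicates 2 and 3 it lay below. Log2 fold changes were 0.38 ± 0.13, 0.46 ± 0.13 and 0.01 ± 0.13, with edgeR adjusted p of 0.0465, 0.0248 and 0.982. Leaving out any 1 library ended the YTHDF1-ADAR call (adjusted p up to 0.127), as did total RNA replicates 2 and 3 and polysome replicates 1 and 3 in YTHDF2-ADAR cells (up to 0.0861). An antisense gene, SLC25A5-AS1, shares 13.2% of its exonic bases.

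SLC25A6 (chrX:1386152-1392113, minus strand, in the pseudoautosomal region) was close to level between fractions with YTHDF1-ADAR and YTHDF2-ADAR and fell on polysomes with YTHDF3-ADAR. Levels of SLC25A6 in total RNA of YTHDF1-ADAR cells were 339, 338 and 307 CPM, and on polysomes 351, 362 and 308 CPM. YTHDF2-ADAR libraries gave 374, 299 and 319 CPM in total RNA and 383, 328 and 323 CPM on polysomes. YTHDF3-ADAR libraries gave 328, 558 and 525 CPM in total and 347, 195 and 247 CPM in polysome RNA. The YTHDF3-ADAR fractions overlapped through replicate 1, which was about level, while replicates 2 and 3 were lower on polysomes. Log2 fold changes were 0.05 ± 0.20, 0.06 ± 0.20 and -0.84 ± 0.20, with edgeR adjusted p of 0.88, 0.884 and 0.00733. The YTHDF3-ADAR call held with each library left out (log2 -1.09 to -0.66), and without replicate 1 of both fractions the change was -1.22 (adjusted p = 1.30e-05). These refits share the spread estimate of the other lines.

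SLC25A3 (chr12:98593591-98606379, plus strand) was called in no line with all libraries in the fit. In YTHDF1-ADAR cells SLC25A3 stood at 248, 246 and 238 CPM in total RNA and 303, 304 and 307 CPM on polysomes. In YTHDF2-ADAR cells SLC25A3 stood at 255, 241 and 231 CPM in total RNA and 320.3, 304 and 313 CPM on polysomes. In YTHDF3-ADAR cells SLC25A3 stood at 279, 372 and 374 CPM in total RNA and 412, 277 and 302 CPM on polysomes. As with SLC25A5, YTHDF3-ADAR replicate 1 stood higher on polysomes and replicates 2 and 3 lower. Its log2 changes were 0.32 ± 0.13, 0.37 ± 0.13 and -0.05 ± 0.13, with edgeR adjusted p of 0.0987, 0.0715 and 0.855. Without replicate 1 of both fractions the YTHDF3-ADAR changes of SLC25A5 and SLC25A3 were -0.22 (adjusted p = 0.0586) and -0.29 (adjusted p = 0.01).

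Whether the polysome change itself differed between lines was tested directly. With all libraries no member was called, and no gene of the 26804 was, in any of the 3 pairs of lines (0% called). At an unadjusted p under 0.05 there were 0, 5 and 6 members for YTHDF2-ADAR minus YTHDF1-ADAR, YTHDF3-ADAR minus YTHDF1-ADAR and YTHDF3-ADAR minus YTHDF2-ADAR, and 166, 877 and 801 of all genes. DESeq2's Wald test called 0 members as well, and 0, 1 and 9 of all genes. The change of SLC25A6 with YTHDF3-ADAR minus that with YTHDF1-ADAR was -0.89 ± 0.28 (edgeR unadjusted p = 0.00516, adjusted p = 1). For SLC25A23 it was -0.61 ± 0.21 (unadjusted p = 0.00962, adjusted p = 1). Without YTHDF3-ADAR replicate 1 of both fractions 3 members were called in both comparisons with that line, all more negative there, beside 0.974% and 1.07% of all genes. Against YTHDF1-ADAR the differences were -0.64 for SLC25A3 (edgeR adjusted p = 0.00374), -0.63 for SLC25A5 (adjusted p = 0.00673) and -1.30 for SLC25A6 (adjusted p = 0.00214). Against YTHDF2-ADAR they were -0.68, -0.69 and -1.30 (adjusted p of 0.00305, 0.00386 and 0.00199). These 2 comparisons share the YTHDF3-ADAR libraries, and this result rests on leaving that replicate out.

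The role groups that follow are small, and their counts are to be read against the share of protein-coding genes called in the 3 lines, 14%, 10.4% and 12.4% higher and 7.47%, 4.78% and 7.99% lower. Nucleotide carriers were split. Of 9 tested, 2, 2 and 2 were called higher and 1, 1 and 3 lower in the 3 lines, with medians of 0.31, 0.38 and 0.01. Beside the genes above, SLC25A36, a pyrimidine nucleotide carrier, was higher in YTHDF3-ADAR cells at 0.76 ± 0.22 (edgeR adjusted p = 0.0249), and stood at 0.60 and 0.50 in the other lines (adjusted p of 0.0647 and 0.147, and 0.0286 and 0.0579 with the block). Leaving out replicate 2 or 3 of either YTHDF3-ADAR fraction ended the call (adjusted p up to 0.114), and without replicate 1 of both the change was 1.13 (adjusted p = 0.0087).

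Of 8 tested carriers of phosphate, di- and tricarboxylates and protons, 3, 4 and 1 were called higher and none lower, where the share of protein-coding genes called lower corresponds to less than 1 member of 8. They had medians of 0.35, 0.38 and 0.17. SLC25A14, a relative of the uncoupling proteins, rose with YTHDF1-ADAR and with YTHDF2-ADAR by 0.46 and 0.46 (edgeR adjusted p of 0.0178 and 0.0206) and had 0.36 in YTHDF3-ADAR cells (adjusted p = 0.0561, and 0.00635 with the block). SLC25A21, the oxodicarboxylate carrier, rose in the same lines by 0.39 and 0.43 (adjusted p of 0.0332 and 0.0266), and SLC25A11 in YTHDF2-ADAR cells by 0.38 (adjusted p = 0.0422). SLC25A21 shares 30.3% of its exonic bases with PAX9 on the other strand.

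Amino acid and acylcarnitine carriers were mostly not called. Of 9 tested, 1, 1 and 1 were called higher, SLC25A20 in each line, and 0, 1 and 1 lower, with medians of 0.07, 0.13 and 0.02. The lower member was SLC25A29, a carrier of basic amino acids, at -0.51 ± 0.17 in YTHDF2-ADAR cells (edgeR adjusted p = 0.0492) and -0.78 ± 0.17 with YTHDF3-ADAR (adjusted p = 0.00438). YTHDF1-ADAR cells gave -0.39 ± 0.17 (adjusted p = 0.11, and 0.00886 with the block). The aspartate/glutamate carriers SLC25A12 and SLC25A13 lay between 0.04 and 0.20 over the 3 lines and were called in no line.

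Carriers of cofactors, glutathione and iron went both ways. Of 12 tested, 3, 2 and 3 were called higher and 1, 1 and 3 lower, with medians of 0.08, 0.04 and -0.17. SLC25A40, a glutathione carrier, rose in YTHDF3-ADAR cells by 0.60 (edgeR adjusted p = 0.0341), while its relative SLC25A39 had -0.19 there and was not called (adjusted p = 0.284). SLC25A16, linked to coenzyme A, and SLC25A51, the NAD+ carrier, were lower in YTHDF3-ADAR cells, at -0.38 and -0.50 (adjusted p of 0.0365 and 0.0137). Without replicate 1 of both fractions SLC25A16 had -0.21 (adjusted p = 0.236).

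Among the 7 tested carriers of unsettled substrate or other function, 1, 0 and 1 were called higher and 1, 0 and 1 lower, with medians of 0.19, 0.15 and -0.01. SLC25A46, which acts in mitochondrial fission and lipid transfer, rose by 0.62 in YTHDF1-ADAR and 0.75 in YTHDF3-ADAR cells (edgeR adjusted p of 0.0295 and 0.012) and had 0.52 in YTHDF2-ADAR cells (adjusted p = 0.0771, and 0.0184 with the block). SLC25A45 was lower with YTHDF1-ADAR and with YTHDF3-ADAR, at -0.72 and -0.67 (adjusted p of 0.0132 and 0.0205). These role groups overlap in function, and the counts describe them without a test. Without replicate 1 of both fractions the YTHDF3-ADAR changes were 0.78 for SLC25A40, -0.43 for SLC25A51, -0.85 for SLC25A29, 1.01 for SLC25A46 and -0.73 for SLC25A45 (adjusted p of 0.000822, 0.0426, 3.00e-05, 0.00104 and 0.00509). Several of these calls rest on single libraries. With 1 of the 6 libraries left out, any of them ended the calls of SLC25A21 (adjusted p up to 0.102) and SLC25A29 (up to 0.147) in YTHDF2-ADAR. In YTHDF1-ADAR all but total RNA replicate 3 ended those of SLC25A21 (up to 0.138) and SLC25A46 (up to 0.139), and total RNA replicates 2 and 3 and polysome replicates 1 and 2 that of SLC25A14 (up to 0.0874). Polysome replicate 3 ended that of SLC25A45 there (adjusted p = 0.0631). In YTHDF2-ADAR all but total RNA replicate 1 ended that of SLC25A11 (up to 0.17), and total RNA replicates 2 and 3 and polysome replicates 1 and 3 that of SLC25A14 (up to 0.0995). In YTHDF3-ADAR replicates 2 and 3 of either fraction ended that of SLC25A40 (up to 0.185), and all but polysome replicate 3 that of SLC25A16 (up to 0.151). Polysome replicate 2 ended that of SLC25A51 (adjusted p = 0.0641), total RNA replicates 2 and 3 that of SLC25A46 (up to 0.0633), and these 3 libraries that of SLC25A45 (up to 0.109). The YTHDF3-ADAR call of SLC25A29 held throughout.

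Related genes outside the family were counted the same way, and the same shares of protein-coding genes apply, 14%, 10.4% and 12.4% higher and 7.47%, 4.78% and 7.99% lower in the 3 lines. Of 16 genes for carrier import and insertion, 3, 3 and 2 were called higher and 0, 0 and 0 lower, with medians of 0.27, 0.30 and 0.15. Named after their values were seen, the others were TOMM20 and TIMM9, TOMM20 and TIMM22, and AGK in the 3 lines. TOMM70, the receptor on the outer membrane that binds carrier precursors, rose in each line, with log2 changes of 0.26, 0.29 and 0.36 (SE 0.09, 0.09 and 0.09, edgeR adjusted p of 0.0438, 0.0336 and 0.00893). Of 24 other mitochondrial transport genes, 12, 9 and 7 were called higher and 0, 0 and 0 lower, with medians of 0.33, 0.32 and 0.19. GHITM, an inner membrane protein, rose by 0.42, 0.48 and 0.44 (SE 0.08, 0.08 and 0.08, adjusted p of 0.00215, 0.00109 and 0.00191) and MPC1, a subunit of the mitochondrial pyruvate carrier, by 0.53, 0.44 and 0.34 (SE 0.09, 0.09 and 0.09, adjusted p of 0.000728, 0.00315 and 0.0128). Of 4 tested carrier-like genes without an SLC25A symbol, 2, 2 and 1 were called higher and 1, 0 and 0 lower. The lower one was UCP3, an uncoupling protein, and MTCH1 was called higher with YTHDF1-ADAR and YTHDF2-ADAR, both named after their values were seen. MTCH2, a carrier-like insertase of the outer membrane, rose by 0.37, 0.49 and 0.30 (SE 0.10, 0.10 and 0.10, adjusted p of 0.0171, 0.00405 and 0.0473).

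Levels were then compared between lines within a fraction. YTHDF1-ADAR and YTHDF2-ADAR cells differed in 1 member in each fraction, and YTHDF3-ADAR cells differed from each of them in 9 to 13. Against YTHDF1-ADAR and YTHDF2-ADAR these were 20% and 24.4% of tested members in total RNA and 26.7% and 28.9% on polysomes. The shares of protein-coding genes called were close to these and somewhat larger, at 22.9% and 28.6% in total RNA and 28.7% and 30.5% on polysomes. In bulk RNA fewer cells with a transcript and less of it per cell cannot be told apart. In total RNA the 1 member of 45 that differed between YTHDF2-ADAR and YTHDF1-ADAR was lower, against 1.28% of all genes lower and 0.545% higher. From YTHDF1-ADAR to YTHDF3-ADAR 6 members were higher and 3 lower, against 11.6% and 6.52% of all genes. From YTHDF2-ADAR to YTHDF3-ADAR 8 were higher and 3 lower, against 15.2% and 7.57%. On polysomes 1 member was lower in YTHDF2-ADAR than in YTHDF1-ADAR, against 1.59% of all genes lower and 0.761% higher. There YTHDF3-ADAR had 3 members higher and 9 lower than YTHDF1-ADAR, against 11.9% and 11.4%, and 4 higher and 9 lower than YTHDF2-ADAR, against 13.6% and 11.5%. Without YTHDF3-ADAR replicate 1 of both fractions the comparisons with that line gave 21 and 26 in total RNA and 24 and 26 on polysomes, against 46.8%, 50.9%, 48.2% and 49.6% of all genes. SLC25A1, SLC25A3, SLC25A20, SLC25A26 and SLC25A42 were higher in total RNA of YTHDF3-ADAR cells than of both other lines, and SLC25A32, SLC25A37 and SLC25A40 lower. On polysomes SLC25A20, SLC25A24 and SLC25A42 were higher than in both, and SLC25A15, SLC25A23, SLC25A32, SLC25A37, SLC25A41 and SLC25A44 lower. The comparisons with both lines share the YTHDF3-ADAR libraries. In total RNA no single library left out ended a call of SLC25A1, SLC25A20, SLC25A32 or SLC25A42, and on polysomes none ended one of SLC25A20, SLC25A32 or SLC25A37. Each of the others lost at least 1 of its calls when a single library was left out. Markers differed between lines as well. Of the 8 HEK293T markers, YTHDF2-ADAR cells had 2 lower than YTHDF1-ADAR cells in each fraction, NEFL and KRT18 (log2 -1.17 and -0.61 in total RNA). YTHDF3-ADAR cells had 1 higher (PAX2) and 2 lower (NEFL and NEFM) than YTHDF1-ADAR cells in total RNA, and 2 higher (NES and PAX2) and 1 lower (NEFL) on polysomes. Above YTHDF2-ADAR cells they had NES, PAX2, KRT8 and KRT18 in both fractions, NES by 2.42 in total RNA. The fibroblast marker COL1A1 was higher in YTHDF3-ADAR cells, by 1.68 and 2.09 in total RNA and 1.65 and 1.87 on polysomes (edgeR adjusted p of 0.000325, 4.00e-05, 0.00025 and 9.18e-05). It was 1 of 3 tested markers of other cell types, and the other 2 were called between no lines. The part of these shifts in the SLC25A differences was not tested.

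SLC25A42, a coenzyme A carrier (chr19:19063994-19113030, plus strand), showed the largest rise between lines in total RNA and also showed the gap between replicates. Levels of SLC25A42 in total RNA of YTHDF1-ADAR cells were 7.42, 7.14 and 6.79 CPM, and on polysomes 6.85, 8.63 and 7.06 CPM. YTHDF2-ADAR libraries gave 7.49, 6.51 and 7.05 CPM in total RNA and 6.61, 6.75 and 7.20 CPM on polysomes. Those of YTHDF3-ADAR gave 8.31, 18.7 and 17.6 CPM in total and 9.38, 15.2 and 14.9 CPM in polysome RNA. Replicate 1 of YTHDF3-ADAR lay close to the other lines, and replicates 2 and 3 well above them in both fractions. In total RNA it was higher in YTHDF3-ADAR cells by 1.06 ± 0.24 over YTHDF1-ADAR and 1.08 ± 0.24 over YTHDF2-ADAR (log2, edgeR adjusted p of 0.00717 and 0.00514). On polysomes the differences were 0.81 ± 0.23 and 0.94 ± 0.23 (adjusted p of 0.0218 and 0.01). Left out singly, YTHDF1-ADAR polysome replicates 1 and 3 and YTHDF3-ADAR polysome replicates 2 and 3 ended the first polysome call (adjusted p up to 0.0981), and YTHDF3-ADAR polysome replicate 2 the second (0.0521). Without replicate 1 of both fractions the total RNA differences were 1.32 and 1.34 (adjusted p of 4.15e-08 and 2.67e-08).

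SLC25A20, whose values are given above, was higher in YTHDF3-ADAR cells in every library of both fractions, replicate 1 included. In total RNA the differences were 0.83 ± 0.13 from YTHDF1-ADAR and 0.98 ± 0.13 from YTHDF2-ADAR (edgeR adjusted p of 0.000938 and 0.000215). On polysomes they were 0.83 ± 0.13 and 0.94 ± 0.13 (adjusted p of 0.000623 and 0.000243). No left-out library ended these calls, and without replicate 1 of both fractions the 4 differences were 0.85, 1.00, 0.74 and 0.85 (adjusted p up to 8.97e-05).

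SLC25A32 was lowest in YTHDF3-ADAR cells. In total RNA its log2 difference was -1.10 ± 0.13 from YTHDF1-ADAR and -0.66 ± 0.13 from YTHDF2-ADAR (edgeR adjusted p of 7.39e-05 and 0.00264), and on polysomes -0.96 ± 0.13 and -0.52 ± 0.13 (adjusted p of 0.000164 and 0.00899). SLC25A37 was lower as well, at -0.71 ± 0.12 and -0.38 ± 0.12 in total RNA (adjusted p of 0.00137 and 0.0341) and -1.01 ± 0.12 and -0.61 ± 0.12 on polysomes (adjusted p of 7.14e-05 and 0.00306). Without YTHDF3-ADAR replicate 1 of both fractions the total RNA differences were -1.27 and -0.83 for SLC25A32 and -0.73 and -0.39 for SLC25A37, and the polysome differences -1.10 and -0.66, and -0.97 and -0.56, all called. The total RNA difference of SLC25A37 from YTHDF2-ADAR lost its call without 5 of the 6 libraries, all but YTHDF3-ADAR total RNA replicate 1 (adjusted p up to 0.119).

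**Figure D4:**
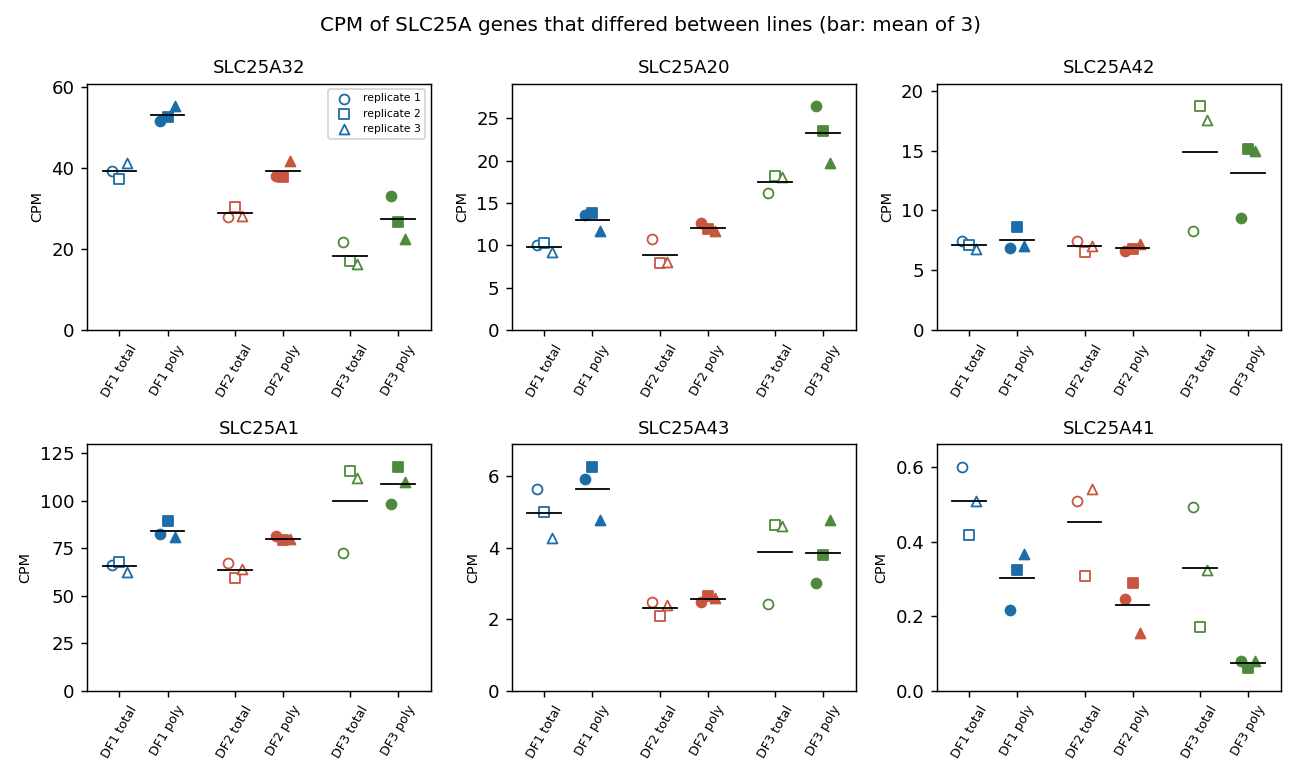
CPM of 6 SLC25A genes that differed between lines, in every library, drawn as in the plot of polysome and total libraries above (DF1, DF2 and DF3 stand for YTHDF1-ADAR, YTHDF2-ADAR and YTHDF3-ADAR). SLC25A20 is higher and SLC25A32 lower in YTHDF3-ADAR cells, SLC25A43 is lowest in YTHDF2-ADAR cells, and replicate 1 of YTHDF3-ADAR total RNA departs from replicates 2 and 3 in SLC25A42, SLC25A1 and SLC25A43.

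SLC25A43, a carrier of unsettled substrate (chrX:119399336-119454478, plus strand, beside SLC25A5), was the only member called between YTHDF2-ADAR and YTHDF1-ADAR cells. In YTHDF1-ADAR cells SLC25A43 stood at 5.65, 4.99 and 4.27 CPM in total RNA and 5.92, 6.27 and 4.78 CPM on polysomes. In YTHDF2-ADAR cells SLC25A43 stood at 2.49, 2.09 and 2.40 CPM in total RNA and 2.49, 2.65 and 2.59 CPM on polysomes. In YTHDF3-ADAR cells SLC25A43 stood at 2.42, 4.65 and 4.60 CPM in total RNA and 3.01, 3.79 and 4.79 CPM on polysomes. Each YTHDF2-ADAR library lay below each YTHDF1-ADAR library of its fraction. YTHDF2-ADAR minus YTHDF1-ADAR was -1.10 ± 0.23 in total RNA and -1.13 ± 0.22 on polysomes (log2, edgeR adjusted p of 0.0177 and 0.00898). The total RNA call was lost without 5 of the 6 libraries, all but YTHDF1-ADAR replicate 3 (adjusted p up to 0.118), and the polysome call without YTHDF1-ADAR replicate 2 or YTHDF2-ADAR replicate 1 (up to 0.0526). In total RNA YTHDF3-ADAR exceeded YTHDF2-ADAR by 0.74 ± 0.23 (adjusted p = 0.0293), although replicate 1 overlapped. That call was lost without any of the 6 libraries but YTHDF3-ADAR replicate 1 (up to 0.141).

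On polysomes SLC25A41 was lower in YTHDF3-ADAR cells, with log2 differences of -2.00 ± 0.43 from YTHDF1-ADAR and -1.64 ± 0.44 from YTHDF2-ADAR (edgeR adjusted p of 0.00498 and 0.015), with the few counts given above. The second call was lost without YTHDF2-ADAR or YTHDF3-ADAR polysome replicate 2 (adjusted p up to 0.0703).

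SLC25A52, a relative of SLC25A51 (chr18:31759584-31760880, minus strand), was similarly scarce, with 9 to 39 counts. Levels of SLC25A52 in total RNA of YTHDF1-ADAR cells were 0.451, 0.264 and 0.291 CPM, and on polysomes 0.247, 0.370 and 0.440 CPM. YTHDF2-ADAR libraries gave 0.539, 0.480 and 0.377 CPM in total RNA and 0.438, 0.514 and 0.428 CPM on polysomes. YTHDF3-ADAR libraries gave 0.510, 0.279 and 0.172 CPM in total and 0.223, 0.153 and 0.286 CPM in polysome RNA. Polysome libraries of YTHDF3-ADAR lay below those of YTHDF2-ADAR, with a log2 difference of -1.06 ± 0.37 (edgeR adjusted p = 0.0444). That call was lost without any 1 of the 6 libraries (adjusted p up to 0.187) and by DESeq2 (adjusted p = 0.0502).

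SLC25A26, which imports S-adenosylmethionine, the methyl donor, into mitochondria (chr3:66133610-66388116, plus strand), was level between fractions. In YTHDF1-ADAR cells SLC25A26 stood at 32.4, 32.2 and 29.5 CPM in total RNA and 30.4, 32.8 and 31.4 CPM on polysomes. In YTHDF2-ADAR cells SLC25A26 stood at 31.3, 27.6 and 27.4 CPM in total RNA and 32.5, 30.2 and 28.5 CPM on polysomes. In YTHDF3-ADAR cells SLC25A26 stood at 38.7, 40.7 and 38.0 CPM in total RNA and 40.1, 29.5 and 34.9 CPM on polysomes. Log2 changes on polysomes were 0.01 ± 0.10, 0.08 ± 0.10 and -0.17 ± 0.10, with edgeR adjusted p of 0.969, 0.672 and 0.275. In total RNA the YTHDF3-ADAR libraries lay above the others, by 0.32 ± 0.10 over YTHDF1-ADAR and 0.44 ± 0.10 over YTHDF2-ADAR (adjusted p of 0.0425 and 0.00723). Leaving out any 1 library ended the first call (adjusted p up to 0.15). SLC25A26 shares 15.5% of its exonic bases with LRIG1 on the other strand.

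Editing was read from the authors' deposited tables, which list the edited sites of a gene for each construct by their number, with 1 score a fraction and no separate replicates. Dividing the score by the number of sites gave the editing per site, in percent, which has no error and an unknown depth. The authors' deposited tables list 24 SLC25A genes for YTHDF1-ADAR, 12 for YTHDF2-ADAR and 19 for YTHDF3-ADAR, out of 48, and 11 in all 3. The 3 tables hold 6858, 4547 and 7042 genes, the fewest for YTHDF2-ADAR. There were 60675 human gene rows and 26804 genes tested, 15675 of them protein-coding, as all members are. They list 27 members in at least 1 construct and 21 in none. SLC25A5 and SLC25A6, the most abundant members, are among those 21. Members in no table had a median level of 2.02 RPKM (range 0.00578 to 336) and those in all 3 one of 6.36 RPKM. Editing per site of listed members in total RNA had medians of 2.04%, 1.32% and 1.74%, beside 2.01%, 1.19% and 1.76% for all genes of these tables.

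The change of editing between fractions was called for 1 member. The authors' deposited tables call 0, 0 and 1 member between polysome and total RNA at an adjusted p under 0.05, against 2.11%, 1.39% and 3.55% of all genes listed. The called gene was SLC25A25, another calcium-regulated ATP-Mg/phosphate carrier (chr9:128068201-128109245, plus strand). In the authors' deposited table it had 11 sites in YTHDF3-ADAR cells with editing per site of 3.21% in total RNA and 1.32% on polysomes (the authors' adjusted p = 0.0034). In the other constructs the authors' deposited tables give it 5 and 2 sites, with 1.28% in total RNA and 1.09% on polysomes for YTHDF1-ADAR and 1.51% in total RNA and 1.5% on polysomes for YTHDF2-ADAR. Levels of SLC25A25 in total RNA of YTHDF1-ADAR cells were 29.8, 31.6 and 27.9 CPM, and on polysomes 30.9, 32.9 and 32.6 CPM. YTHDF2-ADAR libraries gave 32.6, 27.2 and 29.3 CPM in total RNA and 32.8, 33.1 and 32 CPM on polysomes. Those of YTHDF3-ADAR gave 28.6, 26.5 and 27.0 CPM in total and 31.6, 25.2 and 23.1 CPM in polysome RNA. Its level overlapped between fractions in each line, with log2 changes of 0.11 ± 0.11, 0.14 ± 0.11 and -0.04 ± 0.11 (edgeR adjusted p of 0.511, 0.448 and 0.848). SLC25A25 shares 13.5% of its exonic bases with SLC25A25-AS1 on the other strand.

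**Figure D5:**
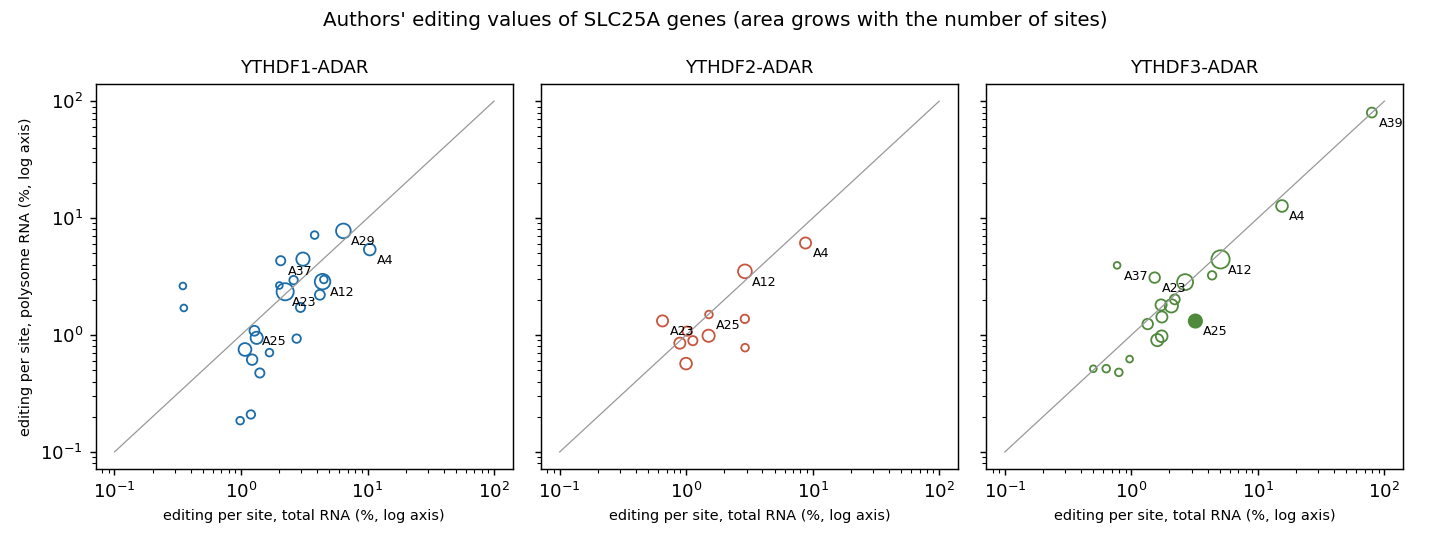
Editing per site in total RNA (x axis) and on polysomes (y axis), in percent on log axes, for SLC25A genes with values above 0 in the authors' deposited table of each construct; the area of a point grows with the number of sites, the grey line marks equal values and the filled point is SLC25A25, the only one called. In YTHDF3-ADAR cells SLC25A39 lies at 79.6% in total RNA, followed by SLC25A4 at 15.5%.

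Among the 11 members listed for all 3 constructs, editing per site in total RNA was highest in YTHDF3-ADAR for 7 and lowest in YTHDF2-ADAR for 9. These averages cover the sites listed for each construct, as in SLC25A23 with 20, 7 and 6 sites. The constructs were therefore not compared on a common set of sites. How often other genes had this order was not counted. The medians over all genes of each table, 2.01%, 1.19% and 1.76%, were also lowest for YTHDF2-ADAR but highest for YTHDF1-ADAR. ADARB1, the gene of the editing enzyme ADAR2, stood in total RNA at 247 ± 17.7, 38.9 ± 1.55 and 1456 ± 326 CPM (SD, n = 3) in the 3 lines. Its part in the order of the 11 members was not tested. SLC25A4, the muscle ADP/ATP carrier, was the most edited of the 11. In the authors' deposited tables it had 8, 7 and 8 sites, with 10.4% in total RNA and 5.38% on polysomes for YTHDF1-ADAR, 8.78% in total RNA and 6.12% on polysomes for YTHDF2-ADAR and 15.5% in total RNA and 12.7% on polysomes for YTHDF3-ADAR. SLC25A12, the aspartate/glutamate carrier, had the most sites by value in YTHDF3-ADAR cells, at 16, 12 and 23 sites in the 3 constructs of the authors' deposited tables. Its editing per site was 4.41% in total RNA and 2.86% on polysomes for YTHDF1-ADAR, 2.91% in total RNA and 3.50% on polysomes for YTHDF2-ADAR and 5.07% in total RNA and 4.43% on polysomes for YTHDF3-ADAR. SLC25A23, lower on polysomes in each line, had 20, 7 and 6 sites in the authors' deposited tables, with 2.23% in total RNA and 2.34% on polysomes, 0.650% in total RNA and 1.32% on polysomes and 1.53% in total RNA and 3.10% on polysomes in that order. SLC25A37, also lower on polysomes, had 4 sites in the authors' deposited table for YTHDF1-ADAR with 2.06% in total RNA and 4.32% on polysomes and 1 site for YTHDF3-ADAR with 0.771% in total RNA and 3.94% on polysomes. Neither change was called by the authors. Most members went the other way. Of those with editing in both fractions, 14 of 23, 8 of 11 and 13 of 19 had less per site on polysomes. The shares of all genes with less on polysomes were 64.2%, 60.2% and 66.9% in the 3 constructs. SLC25A39 appears in the authors' deposited table of YTHDF3-ADAR alone, with 5 sites and 79.6% in total RNA and 79.9% on polysomes, which ranks 32nd of 7042 genes there. SLC25A29 appears in that of YTHDF1-ADAR alone, with 14 sites and 6.45% in total RNA and 7.77% on polysomes. SLC25A47 is listed with 2 sites for YTHDF1-ADAR and YTHDF3-ADAR although no library had more than 10 counts for it.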

How the data were processed

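Total RNA and polysome RNA of 3 HEK293T lines were sequenced in 18 libraries, made with a kit that keeps strand after removal of ribosomal RNA, per the labels' protocols. Per the submitters' processing notes, STAR 2.7.7, featureCounts 2.0.1 and DESeq2 were used with GRCh38 (hg38); no strand setting or DESeq2 version is stated there. The deposited count table holds raw counts per gene. The authors' comparison table holds a mean signal, a log2 fold change and p-values of a comparison it does not name; its symbols, coordinates and lengths were used, and over the members its fold changes had r = 1.00 with those of YTHDF1-ADAR, polysome minus total RNA, computed here. The authors' editing tables hold a site number, an editing score and the natural log of an odds ratio per gene; the labels do not state how replicates were combined.

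Members and lists were chosen with earlier results of these data known. In R 4.3.3, edgeR 4.0.16 (quasi-likelihood, robust, TMM, filterByExpr with a minimum count of 10) was fitted to all 18 libraries with 6 group means, and p-values were adjusted over 26804 genes with a threshold of 0.05. SE is the fold change over the root of F. The fit was tested on simulated data. The 1 row that names no human gene held 0% to 1.48e-05% of counts and was left out. Alternatives were DESeq2 1.42.0, its size factors, no scaling factors, no filter, only the libraries compared, a replicate block, each library left out, and YTHDF3-ADAR replicate 1 of both fractions left out, the last chosen after seeing the data. Deviations from group means were correlated between same-numbered polysome and total libraries of a line. All 9 pairs had r over 0.1 (0.20 to 0.67), which was taken as pairing within a line. Some libraries of other number were closer, such as YTHDF3-ADAR polysome replicate 2 with total RNA replicate 3 (0.51, against 0.36 with replicate 2). Across lines same-numbered libraries of a fraction had r of -0.36 to 0.51. Replicate 1 of YTHDF1-ADAR and YTHDF2-ADAR went together (0.51 in total RNA and 0.30 on polysomes), while replicates 2 and 3 of these lines had negative r. Numbers were not taken as pairing across lines. No 2 replicates agreed within sampling noise (chi-square over its degrees of freedom 7.02 or more). The labels name no molecular identifiers. Exonic bases are shared with other annotated genes in 21 of the 48 members, and 43 SLC25A pseudogene rows reached at most 3.11 CPM on average.

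Given with every library are the 3 members of highest CPM, up to 6 called higher and 6 called lower throughout, up to 4 per comparison between lines, SLC25A26, and members the editing tables call; from the other lists, up to 2 genes called in all 3 lines. Sequences are from RefSeq. Of the members and markers counted, 1 each is not reported here.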

Additional observations from a re-analysis of the deposited data

Results flagged for a closer look

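For 3 members every same-numbered pair of polysome and total libraries moved up in one line and down in another, which drew attention to them; the opposite signs themselves were not tested beyond the edgeR test of the difference, and no difference was called. SLC25A39, a glutathione carrier, differed by -0.286 (log2, YTHDF3-ADAR minus YTHDF1-ADAR, edgeR unadjusted p = 0.101, adjusted p = 1). SLC25A53, a carrier of unsettled substrate, differed by -0.371 in the same comparison (unadjusted p = 0.0409, adjusted p = 1). SLC25A15, an ornithine carrier, differed by -0.429 (YTHDF3-ADAR minus YTHDF2-ADAR, unadjusted p = 0.0155, adjusted p = 1). Opposite signs of the means follow from how these 3 were picked. The lower mean on polysomes was in YTHDF3-ADAR cells for all 3.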

How the results depend on the processing

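No called member changed direction under any setting. The balance of calls did: without YTHDF1-ADAR total RNA replicate 2, 1 member was higher and 3 lower there, and in YTHDF2-ADAR 2 and 2 without total RNA replicate 2 or 3 or polysome replicate 1 or 3. The median log2 change of members in YTHDF3-ADAR, 0.01 with all libraries, ran from -0.17 to 0.31 over the settings. Values are in the order YTHDF1-ADAR, YTHDF2-ADAR, YTHDF3-ADAR for polysome against total RNA, where 10, 9 and 8 members were called higher and 3, 3 and 8 lower. Without scaling factors the counts were 33, 29 and 16 higher and 0, 0 and 5 lower, the medians 0.63, 0.55 and 0.31, and 14 members were called in total RNA between YTHDF3-ADAR and YTHDF1-ADAR, beside 27.3% of all genes. With only the libraries compared, which estimates the spread from 6 libraries, they were 16, 20 and 0 higher and 5, 7 and 1 lower, beside 12.5%, 15.1% and 0% of all genes higher and 16.9%, 16.0% and 0.776% lower. Between lines that setting called 4, 3 and 3 members in total RNA and 6, 5 and 4 on polysomes (YTHDF2-ADAR minus YTHDF1-ADAR, YTHDF3-ADAR minus YTHDF1-ADAR, YTHDF3-ADAR minus YTHDF2-ADAR), beside 3.57%, 1.09% and 4.95%, and 9.70%, 8.35% and 10.2% of all genes. DESeq2's Wald test called 5 members lower in YTHDF2-ADAR (10.4% of all genes) and 2 in each fraction between YTHDF2-ADAR and YTHDF1-ADAR (2.92% and 3.91%). With no filter 4 were higher in YTHDF2-ADAR (1.99% of all genes). With YTHDF3-ADAR replicate 1 left out in both fractions, an alternative added later, 3 members were called for the difference of polysome change in each comparison with that line, and 21 and 26 (total RNA) and 24 and 26 (polysomes) between lines. With 1 library left out, members higher ran 1 to 7, 2 to 6 and 4 to 10 and lower 2 to 3, 2 to 2 and 5 to 10; calls between lines ran 0 to 1, 5 to 14 and 5 to 18 in total RNA and 0 to 1, 7 to 22 and 5 to 24 on polysomes. All genes called higher then ran 4.44% to 6.97%, 2.50% to 5.19% and 3.33% to 14.6% and lower 7.80% to 9.65%, 5.61% to 7.01% and 7.27% to 15.2%. Between lines they ran 0.899% to 1.22%, 6.28% to 37.3% and 9.60% to 42.1% in total RNA and 1.22% to 1.70%, 9.79% to 40.5% and 10.6% to 42.4% on polysomes. The cause of these shifts was not tested. Of calls of single members, 87 of 88 held with the replicate block, 83 with DESeq2, 77 with its size factors in edgeR, 68 with no filter, 67 without scaling factors and 43 with only the libraries compared, and leaving out 1 library ended 213 of 528 call and library combinations. With the replicate block 20, 18 and 10 members were higher and 4, 5 and 11 lower. For levels between lines, where the numbers were not taken as pairing, the block ended 1 member call, SLC25A53 on polysomes between YTHDF3-ADAR and YTHDF1-ADAR (adjusted p = 0.0525). Editing tables cut to genes with at least 2 sites list 20, 11 and 16 members. Members with few counts, such as SLC25A41 and SLC25A52, are limited by depth.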
